A study of Oryza sativa with 12 samples.

Results

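The rice genes described here belong to the enzyme families of jasmonate synthesis or to the TIFY family, which holds the JAZ repressors of jasmonate signalling. They were chosen by name, with earlier results of these data known. A symbol or synonym, with any leading Os ignored, had to be TIFY, JAZ, LOX, AOS, AOC or OPR, with or without a number and letter. The gene tables held 39 such genes, and 35 of them had a probe set of their own, out of 17905 genes with a probe set on the array. These 35 were 18 synthesis genes (6 lipoxygenases, 4 allene oxide synthases, 1 allene oxide cyclase and 7 oxophytodienoate reductases) and 17 TIFY genes (13 with a JAZ name and 4 without). LOX4, OPR3, TIFY1B and the entry that carries the name OPR1 alone had no probe set and were not measured.

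Shoots of 4 lines were compared on an Affymetrix rice array, with 3 biological replicates per line and 12 arrays in all. All plants were of the cultivar Taichung 65 or carried a mutation in that background, were grown in a greenhouse and were sampled 5 weeks after germination. The control was the unmutated parental cultivar (T65), and the mutants were gid1-3, of the gibberellin receptor GID1, gid2-1, of the F-box protein GID2, and slr1 (k1001), of the DELLA repressor SLR1. Each mutant is represented by a single allele, and whether that of SLR1 is a loss or a gain of function is not in the labels. They also do not say whether plants were pooled or replicates grown apart, so p values measure the spread between these arrays.

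Jasmonates are lipid-derived hormones of wound and defence responses, fertility and growth restraint. In the plastid a 13-lipoxygenase (LOX) oxygenates linolenic acid, allene oxide synthase (AOS) and allene oxide cyclase (AOC) turn the product into 12-oxophytodienoic acid, and in the peroxisome a reductase (OPR) reduces it ahead of beta-oxidation. The isoleucine conjugate made by JAR1 is bound by the receptor COI1 together with a JAZ protein, which is then degraded and releases the transcription factors it held back. Many JAZ genes are themselves induced by jasmonate. In Arabidopsis, DELLA and JAZ proteins bind each other.

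Values below are scaled linear signals, given per array in replicate order or as mean ± SD (n = 3). Changes are log2 differences ± SE from one limma model over the 12 arrays, called at an adjusted p under 0.05 (Benjamini-Hochberg over all 57194 tested probe sets). The 3 comparisons with T65 share the same T65 arrays. Median signals per array ran from 58.0 to 75.8, and the 95th percentile of the array's reporter controls, taken here as the level of no specific signal, reached at most 42.0 on a T65 array and 52.2, 52.1 and 51.6 on arrays of gid1-3, gid2-1 and slr1. AOS4, OPR12 and TIFY8 lay under it in every line, so none of them is described singly, but they are counted among the 18 and 17 genes and enter their medians. Of 5 measured markers of green shoot tissue, 4 were above it in every line (RBCS1 was not), and their summed signal, mostly CAB2R and RBCS, was 57218 to 61128 in T65, 63838 to 69187 in gid1-3, 46975 to 61293 in gid2-1 and 62676 to 84210 in slr1. Single markers moved: PSAG was 4946 ± 356 in T65 but 814 ± 59.0 in gid2-1 (adjusted p = 1.6e-12) and was called slightly higher in gid1-3, and PSAH was 9995 ± 97.9 in T65 but 18812 ± 1570 in slr1 (adjusted p = 2.4e-07). The 5 root markers summed to 676 to 736 in T65, 739 to 754 in gid1-3, 1873 to 2019 in gid2-1 and 916 to 984 in slr1. Most of this was LSI1, 544 ± 15.5 in T65 and 1643 ± 83.0 in gid2-1. NRT2.3 was also called higher in gid2-1, IRT1 was not called in any mutant, and LSI2 and PHT1-6 lay under the reporter level in every line. The 11 inflorescence markers summed to 1955 to 2205 in T65, 1026 to 1111 in gid1-3, 2364 to 2636 in gid2-1 and 1047 to 1229 in slr1, and their members went different ways. One of the genes named MADS2 was 1211 ± 28.1 in T65, 268 ± 6.52 in gid1-3 and 415 ± 47.9 in slr1, and MADS16 was called lower in gid1-3 and higher in gid2-1. MADS4 and MADS58 were called higher in both gid mutants, and MADS1, MADS3, MADS6, MADS7, MADS8 and MADS13 lay under the reporter level in every line. The part of these tissues in the results was not tested, and in whole shoots fewer cells of a type and less RNA per cell cannot be told apart.

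Lipoxygenases, of which the 13 type opens the pathway, changed in both gid mutants in all 6 measured cases, where 5 rose and 1 fell. Called shares were 29.5% of all probe sets in gid1-3 and 26.1% in gid2-1, and 54.1% and 48.4% of those at or above the median signal. Of the 6 genes only LOX3 has a name that spells out its type, which is not the 13 type. The types of the others, LOX1.1 among them, were not established here, so these counts are of the family. LOX8 and LOX9, which also carry the names CM-LOX1 and CM-LOX2, rose about equally in gid1-3 and gid2-1. LOX8 measured 3045, 2819 and 2782 in T65, 12123, 12948 and 12863 in gid1-3, 11941, 11691 and 10858 in gid2-1, and 2856, 2219 and 2121 in slr1. Every array of the gid mutants lay above every array of T65 and slr1. Against T65 the gid1-3 change was 2.13 ± 0.09 (adjusted p = 9.2e-11) and the gid2-1 change 2.00 ± 0.09 (adjusted p = 2.2e-10). In slr1, whose arrays overlapped those of T65, it was -0.28 ± 0.09 (adjusted p = 0.045), a call lost under 13 of 22 other settings, among them the removal of any single T65 or gid1-3 array, of gid2-1 replicate 1 or of slr1 replicate 2 or 3.

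LOX9 measured 1993, 1978 and 1944 in T65, 7825, 7698 and 7869 in gid1-3, 8322, 7372 and 8264 in gid2-1, and 927, 975 and 874 in slr1. The 3 levels were separate: the gid mutants were 3.95-fold and 4.04-fold above T65 (1.98 ± 0.06, adjusted p = 2.8e-12, and 2.02 ± 0.06, adjusted p = 2.6e-12), and slr1 was 2.13-fold below it (-1.09 ± 0.06, adjusted p = 5.2e-09). Of the other probe sets of LOX9, the brighter gave changes of 2.35 ± 0.21, 1.92 ± 0.21 and -0.66 ± 0.21, all called. It can bind related transcripts, and its slr1 arrays overlapped those of T65. The dimmer one, under the reporter level in T65 and slr1, was called in gid1-3 (2.91 ± 0.70, adjusted p = 0.0046). Its changes in gid2-1 (1.90 ± 0.70, adjusted p = 0.062) and slr1 (-2.04 ± 0.70, adjusted p = 0.055) were not called.

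LOX3, also named r9-LOX1 and so a lipoxygenase of the 9 type, whose products do not lead to jasmonate, had a similar order at a much dimmer probe set. Its signals were 160, 148 and 144 in T65, 257, 329 and 344 in gid1-3, 469, 411 and 420 in gid2-1, and 96.1, 115 and 122 in slr1. No array of a gid mutant overlapped T65 (1.03 ± 0.14, adjusted p = 3.3e-05, and 1.53 ± 0.14, adjusted p = 6.6e-07), and the lower level in slr1 (-0.44 ± 0.14, adjusted p = 0.040) lost its call under 11 of 22 other settings, among them the removal of any single T65 array, of gid2-1 replicate 3 or of slr1 replicate 1 or 2.

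LOX5 and LOX1.1 were above T65 in slr1 too. For LOX5 the arrays gave 4716, 4622 and 4761 in T65, 11716, 11690 and 10936 in gid1-3, 12878, 13215 and 11326 in gid2-1, and 7514, 7317 and 7388 in slr1, an intermediate level (0.66 ± 0.06, adjusted p = 1.6e-06). This probe set can bind related transcripts. LOX1.1 gave 172, 203 and 181 in T65, 330, 384 and 338 in gid1-3, 591, 618 and 597 in gid2-1, and 651, 627 and 573 in slr1. Its rise in slr1 (1.74 ± 0.10, adjusted p = 5.7e-09) was of the size of that in gid2-1 (1.70 ± 0.10, adjusted p = 2.5e-09), and larger than that in gid1-3 (0.92 ± 0.10, adjusted p = 1.9e-06).

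LOX2 was the lipoxygenase that fell. It measured 906 ± 79.5 in T65, 474 ± 77.5 in gid1-3 (-0.94 ± 0.13, adjusted p = 2.8e-05), 596 ± 101 in gid2-1 (-0.61 ± 0.13, adjusted p = 0.0017). In slr1 it measured 1127 ± 84.1, with a change of 0.32 ± 0.13 that was not called (adjusted p = 0.11). Each gid array was below each T65 array, and the 3 slr1 arrays were above them.

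AOS commits the lipoxygenase product to jasmonate, and its genes differed from each other. AOS2, or CYP74A2, measured 2331, 2434 and 2226 in T65, 5243, 4877 and 5003 in gid1-3, 8164, 7710 and 7462 in gid2-1, and 1130, 1164 and 1025 in slr1. All 4 lines were separate: gid2-1 was highest, then gid1-3, T65 and slr1. The changes were 1.11 ± 0.06 (adjusted p = 2.1e-09), 1.74 ± 0.06 (adjusted p = 1.9e-11) and -1.08 ± 0.06 (adjusted p = 1.0e-08). AOS1, the gene behind the precocious mutant of rice, rose in gid2-1, with 3022 ± 128 in T65, 3614 ± 176 in gid1-3, 5854 ± 768 in gid2-1 (0.95 ± 0.12, adjusted p = 1.3e-05), and 3839 ± 694 for slr1. The changes in gid1-3 and slr1 were 0.26 ± 0.12 and 0.33 ± 0.12, not called (adjusted p = 0.12 and 0.063). Tested directly, AOS1 was lower in gid1-3 than in gid2-1 (-0.69 ± 0.12, adjusted p = 4.0e-04). AOS3 had a low signal, 70.3 ± 3.82 in T65, and was not called in any comparison.

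AOC, for which the file tables give a single gene, was called against T65 in slr1 alone, with a change under 2-fold. It is the gene of the jasmonate-deficient hebiba and cpm2 mutants. AOC measured 9074 ± 266 in T65 and 8871 ± 385 in gid1-3, against 10900 ± 1725 for gid2-1 and 11721 ± 1204 for slr1. The rise in slr1 (0.36 ± 0.10, adjusted p = 0.013) was lost when arrays were centred on the spiked controls, when the fit had no variance trend, or when replicate 3 of slr1 was left out.

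**Figure D1:**
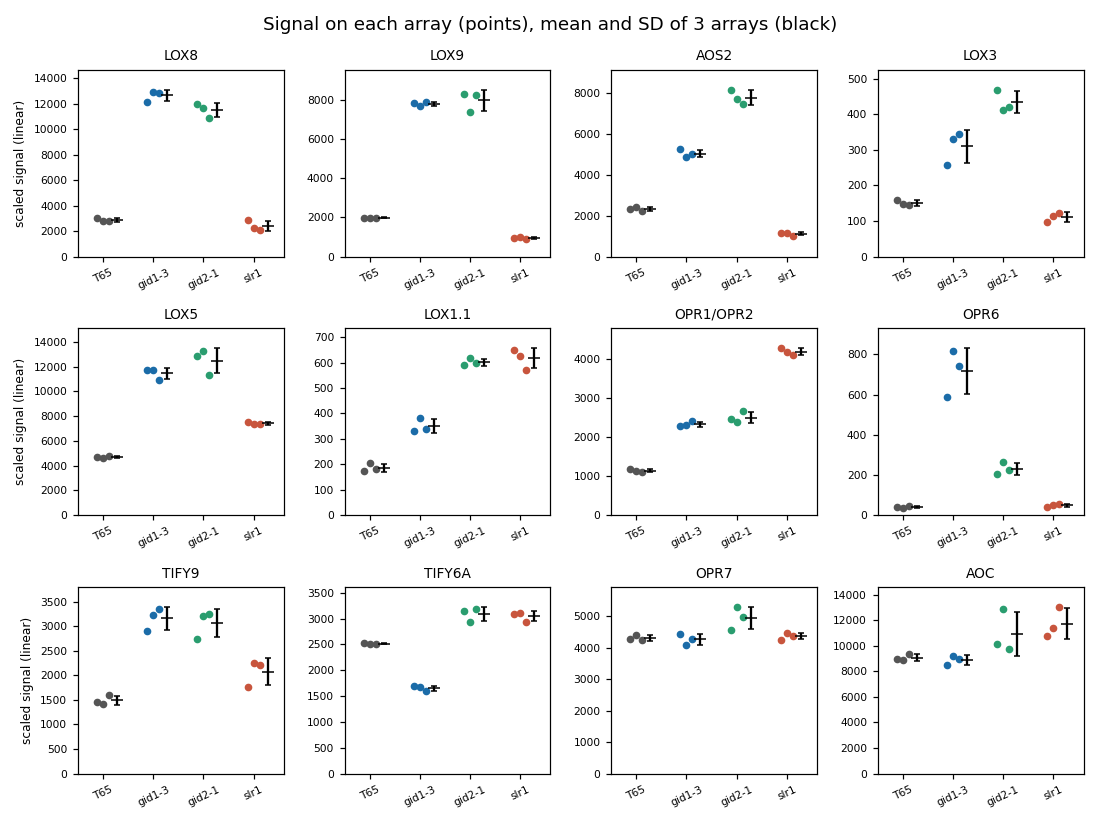
Scaled linear signal (vertical axes, from 0) of 12 genes on each array, with 1 coloured point per array, lines on the horizontal axes, and the mean and SD of 3 arrays in black. LOX8, LOX9, AOS2 and LOX3 were high in the gid mutants and at or below T65 in slr1, and OPR1/OPR2 was highest in slr1. The means of OPR7 stayed close to T65, and AOC was 1.29-fold above T65 in slr1.

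The reductase OPR7, the rice OPR known to reduce the jasmonate precursor, was nearly level across the lines. Its signals were 4285, 4400 and 4229 in T65, 4428, 4086 and 4269 in gid1-3, 4572, 5294 and 4961 in gid2-1, and 4258, 4456 and 4372 in slr1. The change in gid2-1 was 0.20 ± 0.06 (adjusted p = 0.023), lost or turned in sign under 7 of 22 other settings, among them the removal of T65 replicate 1 or 3 or of gid2-1 replicate 2, and those in gid1-3 and slr1 were -0.02 ± 0.06 and 0.02 ± 0.06, not called.

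Larger changes were found among other reductases, whose family name alone does not place them in jasmonate synthesis. OPR6, also listed as OPR4, measured 38.5, 36.9 and 44.5 in T65, 590, 815 and 742 in gid1-3, 205, 262 and 224 in gid2-1, and 39.1, 50.1 and 55.6 in slr1. T65 and slr1 lay at the reporter level, so the fold is a bound: OPR6 was at least 17.0-fold higher in gid1-3 than in T65 (adjusted p = 2.8e-10) and at least 5.51-fold higher in gid2-1 (adjusted p = 8.7e-08). The gid mutants did not overlap, and gid1-3 was 3.09-fold above gid2-1 (1.63 ± 0.20, adjusted p = 1.6e-05). OPR5 had the reverse order, with 305, 369 and 297 in T65, 611, 620 and 607 in gid1-3, 1073, 992 and 1065 in gid2-1, and 377, 353 and 248 in slr1. It rose by 0.93 ± 0.13 and 1.70 ± 0.13 (adjusted p = 4.8e-05 and 9.3e-08), with -0.01 ± 0.13 in slr1.

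OPR1/OPR2, an entry that carries both names and whose probe set can bind related transcripts, was highest in slr1. It measured 1187, 1131 and 1106 in T65, 2272, 2301 and 2402 in gid1-3, 2450, 2387 and 2661 in gid2-1, and 4277, 4190 and 4103 in slr1. All mutant arrays lay above T65, by 1.03 ± 0.06, 1.13 ± 0.06 and 1.88 ± 0.06 (adjusted p = 1.9e-09, 7.7e-10 and 1.3e-11). The second gene named OPR4, here OPR4, fell in gid1-3, where it measured 1308 ± 33.6 against 1991 ± 153 in T65 (-0.60 ± 0.07, adjusted p = 7.3e-06). It measured 2030 ± 150 in gid2-1 and 1912 ± 102 in slr1. OPR8 was not called in any mutant against T65.

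Counted together, 11 of the 18 synthesis genes were called in gid1-3 (9 higher than T65, 2 lower), 12 in gid2-1 (11 higher, 1 lower) and 8 in slr1 (4 higher, 4 lower). The 4 lower calls in slr1 became 2 without any single T65 array or without replicate 2 of slr1. Over all tested probe sets 29.5% were called in gid1-3 (14.1% higher, 15.4% lower), 26.1% in gid2-1 (13.7% higher, 12.4% lower) and 19.9% in slr1 (9.1% higher, 10.8% lower). Brighter probe sets are called more often, and 16 of the 18 genes were at or above the median signal. Of all probe sets there, 54.1% were called in gid1-3 (26% higher, 28.1% lower), 48.4% in gid2-1 (25% higher, 23.4% lower) and 37.5% in slr1 (17% higher, 20.5% lower). The shares of synthesis genes called were 61.1%, 66.7% and 44.4%, beside those 54.1%, 48.4% and 37.5% of bright probe sets. In the gid mutants the shares called higher, 50% and 61.1%, lay further above the 26% and 25% of bright ones. Changes of at least 2-fold were called for 7, 9 and 4 of the 18 in gid1-3, gid2-1 and slr1, beside 11.2%, 8.6% and 4.46% of all probe sets and 17.4%, 13.4% and 6.64% of the bright ones. The joint F-test of all 3 mutants against T65 called 28 of the 35 members, beside 39.9% of all probe sets. Of the 35, 31 were at or above the median signal, and the share of bright probe sets called by this test was not computed.

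Among the 13 JAZ genes, gid1-3 had 9 called higher and 1 lower, gid2-1 had 8 higher, and slr1 had 3 higher, the latter 2 lines with none lower. All probe sets were called in 29.5%, 26.1% and 19.9% of cases in these lines, and bright ones in 54.1%, 48.4% and 37.5%. Most of the called changes were under 2-fold. The clearest was TIFY9 (JAZ5), with 1454, 1414 and 1603 in T65, 2908, 3231 and 3363 in gid1-3, 2738, 3221 and 3246 in gid2-1, and 1759, 2252 and 2217 in slr1. Its arrays fell into a low T65 level, an intermediate slr1 level and a high level of the gid mutants that overlapped each other. The changes were 1.09 ± 0.10 (adjusted p = 3.8e-07), 1.04 ± 0.10 (adjusted p = 7.7e-07) and 0.47 ± 0.10 (adjusted p = 0.0026).

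TIFY10C (JAZ8) rose more in gid2-1 than in gid1-3. It measured 3376 ± 101 in T65, 4057 ± 274 in gid1-3 (0.26 ± 0.06, adjusted p = 0.0051), 5540 ± 214 in gid2-1 (0.71 ± 0.06, adjusted p = 4.6e-07), with a level of 3022 ± 192 for slr1 (-0.16 ± 0.06, adjusted p = 0.10). The direct difference of the gid mutants was -0.45 ± 0.06 (adjusted p = 8.6e-05). TIFY11E (JAZ13) had the opposite order, 14190 ± 355 in gid1-3 against 11328 ± 372 in gid2-1 and 11102 ± 379 in T65, with a direct difference of 0.33 ± 0.06 (adjusted p = 0.0011).

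TIFY6A (JAZ3) was the only TIFY gene called in opposite directions against T65. Its signals were 2528, 2511 and 2502 in T65, 1690, 1667 and 1592 in gid1-3, 3148, 2932 and 3191 in gid2-1, and 3079, 3113 and 2938 in slr1. The gid1-3 arrays lay below all others and those of gid2-1 and slr1 above T65. It fell by 0.61 ± 0.05 on the log2 scale in gid1-3 (adjusted p = 3.2e-07), a call kept under all 22 other settings. The rises of 0.30 ± 0.05 in gid2-1 and 0.28 ± 0.05 in slr1 (adjusted p = 5.6e-04 and 0.0016) were lost under both centrings of the arrays, on medians and on spiked controls.

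TIFY5 (JAZ2) was seen above the reporter level only in gid1-3, with 77.8, 95.6 and 113 there against 2.69, 6.80 and 15.1 in T65, 33.8, 23.3 and 25.8 in gid2-1 and 7.57, 26.2 and 4.59 in slr1. It was at least 2.498-fold higher in gid1-3 than in T65 (adjusted p = 8.0e-04). Of the remaining JAZ genes, TIFY10A, TIFY11A, TIFY11C and TIFY11D rose in both gid mutants, by 0.31 to 0.63. TIFY11B rose in gid1-3 (0.32 ± 0.09, lost without replicate 2 of gid1-3) and TIFY10B in gid2-1 (0.36 ± 0.08). The probe sets of TIFY5, TIFY10A and TIFY11B can bind related transcripts. TIFY11C also rose in slr1 (0.42 ± 0.11, adjusted p = 0.0092), a call lost after quantile normalization, with either centring and in the fit with no variance trend, and its rise in gid1-3 was lost under these settings and without replicate 1 of gid1-3. TIFY3 (JAZ1, the EG2 gene of flower development) was not called in any comparison.

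TIFY6B (JAZ4) had probe sets that disagreed. The brighter one, which can bind related transcripts, was not called, with 0.26 ± 0.12 in gid1-3 and 0.20 ± 0.12 in slr1, while the other was lower in gid1-3 and slr1 (-0.53 ± 0.09, adjusted p = 1.9e-04, and -0.28 ± 0.09, adjusted p = 0.035). For TIFY11B the second probe set gave 0.68 ± 0.07 in gid1-3.

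Of the TIFY genes without a JAZ name, TIFY8 was under the reporter level, and the other 3 were not called higher than T65 in any mutant. TIFY1A, TIFY2A and TIFY2B also carry GATA names, and proteins of that kind pair the TIFY motif with a GATA zinc finger. TIFY1A fell from 1693 ± 43.3 in T65 to 1364 ± 169 in gid1-3 (-0.32 ± 0.09, adjusted p = 0.015), lost on leaving out T65 replicate 3 or gid1-3 replicate 1, and to 1405 ± 141 in gid2-1 (-0.27 ± 0.09, adjusted p = 0.039), lost without any single T65 array, replicate 3 of gid2-1 or replicate 2 of slr1. TIFY2B, whose probe set can bind related transcripts, fell in gid1-3 (-0.27 ± 0.07, adjusted p = 0.011). This call was lost on leaving out T65 replicate 3 or gid1-3 replicate 2, and TIFY2A was not called against T65.

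Over the 17 TIFY genes, of which 15 were bright, 12 were called in gid1-3 (9 higher, 3 lower), 9 in gid2-1 (8 higher, 1 lower) and 3 in slr1 (all higher). The shares called were 70.6% and 52.9% in gid1-3 and gid2-1, beside 54.1% and 48.4% of bright probe sets, and the 17.6% called in slr1 was below the 37.5% of bright ones. Changes of at least 2-fold were called for 2 TIFY genes in gid1-3 (TIFY5 and TIFY9) and 1 in gid2-1 (TIFY9), beside 11.2% and 8.6% of all probe sets and 17.4% and 13.4% of the bright ones. The 3 lower calls in gid1-3 became 1 without replicate 3 of T65. With arrays centred on the spiked controls, which moved the median change of all probe sets to -0.25, -0.17 and -0.12 in the 3 mutants, the TIFY counts were 3 higher (TIFY5, TIFY9 and TIFY10A) and 3 lower in gid1-3, 3 higher and 2 lower in gid2-1 and 1 higher and 2 lower in slr1. Centred on array medians they were 9 and 2, 4 and 1, and 1 and none. The synthesis genes counted 9 higher and 3 lower, 10 and 1, and 3 and 4 on the spiked controls, and 4 and 2 in slr1 on array medians. Signals of 9 of the 13 JAZ genes lay in the top 1% of probe sets, and whether signals there respond in full was not tested.

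**Figure D2:**
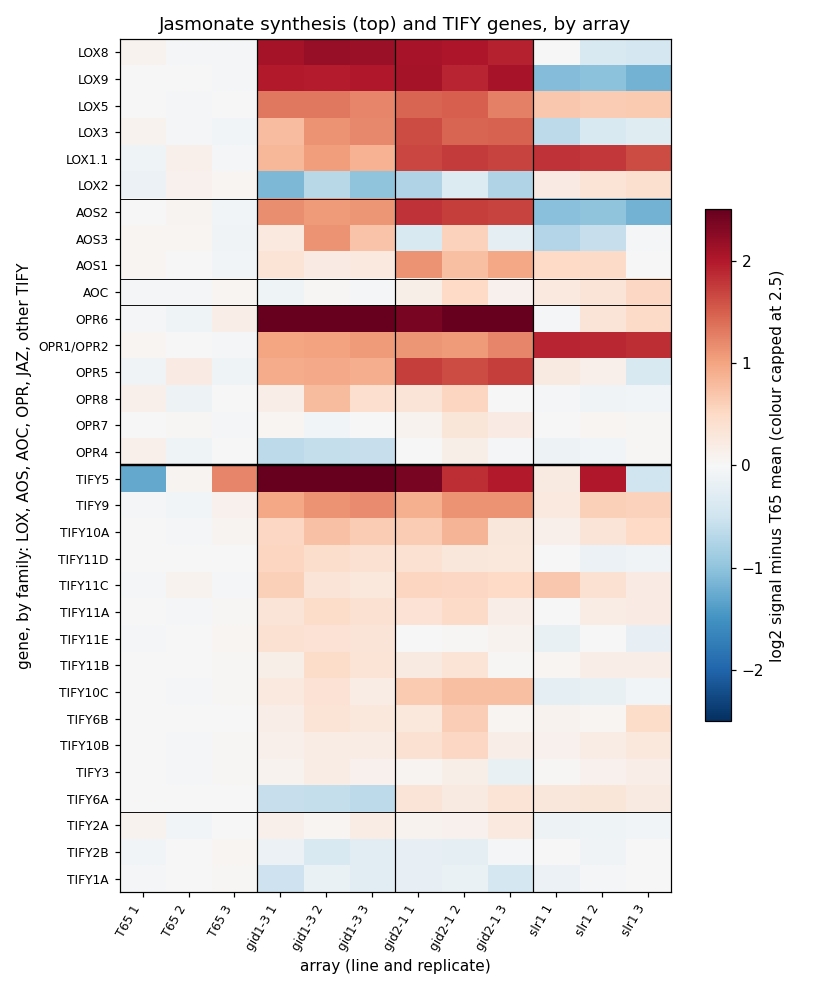
Log2 signal minus the T65 mean (colour, capped at both ends of the scale) of the 32 genes above the reporter level in at least 1 line, by array (columns, 3 per line) and gene (rows, grouped by family, with synthesis genes above the thick line). All lipoxygenases but LOX2, which was lower, as well as AOS2 and 3 of the reductases were clearly higher in the gid mutants, and most JAZ genes differed from T65 by less.

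Set against each other, the synthesis genes, grouped by family name, had a higher median change than the TIFY genes in both gid mutants. The group includes LOX3, a lipoxygenase whose products do not lead to jasmonate, and lipoxygenases such as LOX1.1 whose type was not established here. It also includes reductases other than OPR7, which their name alone does not place in jasmonate synthesis. Medians without these genes were not taken. Signals of 9 of the 13 JAZ genes lay in the top 1% of probe sets, as did AOC among the synthesis genes. Whether changes there are measured in full was not tested. In slr1 the synthesis median says little, since its members went both ways: LOX9 and AOS2 were below T65 by over 2-fold and LOX1.1 and OPR1/OPR2 above it by over 2-fold, with 8 of 18 called there against 3 of 17 TIFY genes. The median change of the 18 synthesis genes was 0.81 in gid1-3, 1.04 in gid2-1 and 0.01 in slr1, that of the 17 TIFY genes 0.32, 0.31 and 0.13, and that of all tested probe sets -0.0045, 0.05 and -0.02. On single arrays the synthesis median exceeded the TIFY median by 0.32, 0.62 and 0.53 in gid1-3 and by 0.75, 0.42 and 0.84 in gid2-1, and the difference was -0.06, -0.07 and -0.15 in slr1. All 6 gid arrays thus lay above all slr1 and T65 arrays. Each gene was centred on its own T65 mean, so the T65 differences are small by construction. No test was applied to this description, since members share arrays and were chosen with earlier results known. Without the probe sets that can bind related transcripts, the difference of the fitted medians shrank from 0.49 to 0.27 in gid1-3 and from 0.72 to 0.31 in gid2-1, and without dim ones it grew to 0.66 and 0.96.

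**Figure D3:**
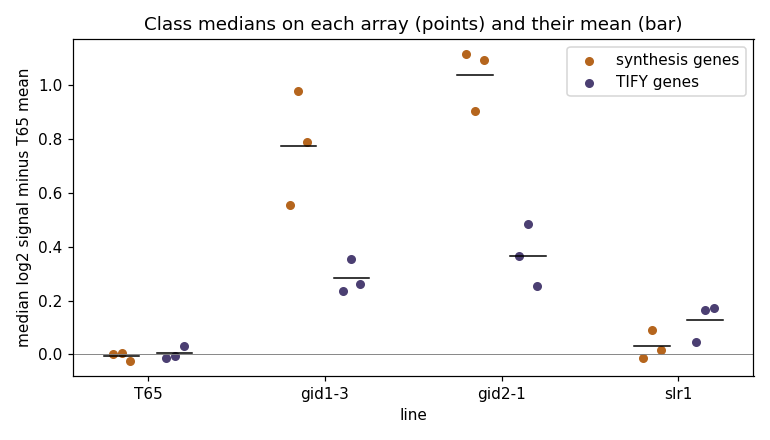
Median over the 18 synthesis genes (brown) and over the 17 TIFY genes (purple) of log2 signal minus the T65 mean (vertical axis), on each array (points), by line (horizontal axis), with the mean of 3 arrays as a bar. In the gid mutants the synthesis medians lay from 0.56 to 1.115 and the TIFY medians from 0.24 to 0.48, and both were near 0 in slr1.

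Between the mutants, without T65, slr1 was set against the mean of gid1-3 and gid2-1. Of the synthesis genes 8 were lower and 5 higher in slr1, and of the TIFY genes 8 were lower and 3 higher (TIFY6A, TIFY1A and TIFY2B), beside 30% of all probe sets called (13.9% higher, 16.1% lower) and 54.9% of the bright ones (25.5% higher, 29.4% lower). The 3 higher TIFY calls became 1 without any single T65 array or without replicate 2 or 3 of slr1, and 2 without any other array. At 2-fold it was 7 synthesis genes and 1 TIFY gene, beside 9.5% of all probe sets and 14.1% of the bright ones. The lower synthesis genes were led by LOX9 (-3.09 ± 0.05, adjusted p = 1.0e-14), AOS2 (-2.502 ± 0.05, adjusted p = 1.2e-13), LOX8 (-2.34 ± 0.08, adjusted p = 7.2e-12), LOX3 (-1.72 ± 0.12) and OPR5 (-1.32 ± 0.11). OPR6 was called lower too, with a fitted change of -3.08 ± 0.17. Its mean in slr1 was under the highest reporter level of that line, and a bound was not computed for this comparison. It is therefore left out of this order. LOX2 (1.09 ± 0.11, adjusted p = 1.3e-06), OPR1/OPR2 (0.80 ± 0.05, adjusted p = 6.1e-09) and LOX1.1 (0.42 ± 0.08) were higher in slr1, as were AOC (0.25 ± 0.08) and OPR4 (0.23 ± 0.06). The AOC call was lost under 7 of 22 other settings. Among them were the removal of gid1-3 replicate 1, of gid2-1 replicate 1 or 3, and of slr1 replicate 2 or 3. That of OPR4 was lost under 3 settings, among them the removal of slr1 replicate 3. Also lower in slr1 were LOX5 (-0.69 ± 0.05) and OPR8 (-0.45 ± 0.15). The OPR8 call was lost under 10 of 22 other settings, among them the removal of any single slr1 array. Among JAZ genes TIFY10C, TIFY9 and TIFY11D were lower in slr1 by log2 changes of -0.65 ± 0.06, -0.59 ± 0.09 and -0.46 ± 0.05, and TIFY6A was higher (0.43 ± 0.05). The lower call of TIFY10A (-0.30 ± 0.11, adjusted p = 0.049) was lost under 14 of 21 other settings.

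The gid mutants also differed from each other, mostly with the higher level in gid2-1. Of the synthesis genes 8 were lower and 1 higher in gid1-3 than in gid2-1, and of the TIFY genes 2 were lower and 1 higher, beside 21.1% of all probe sets called (9.06% higher, 12% lower) and 39% of the bright ones (17.2% higher, 21.9% lower). At 2-fold it was OPR6 alone, beside 6.25% of all probe sets and 9.4% of the bright ones. OPR6 was the synthesis gene that was higher in gid1-3. LOX1.1 (-0.78 ± 0.10), OPR5 (-0.77 ± 0.13), AOS1, OPR4 (-0.63 ± 0.07), AOS2 (-0.63 ± 0.06) and LOX3 (-0.49 ± 0.14, lost without replicate 1 of either gid mutant) were lower there. AOC (-0.29 ± 0.10) and OPR7 (-0.21 ± 0.06) were called lower too, calls lost under 12 and 6 of 22 other settings, among them the removal of any gid1-3 array for AOC and of gid1-3 replicate 2 or 3 for OPR7, and of gid2-1 replicate 2 for both. LOX8, LOX9 and LOX5 were not called, with differences of 0.14 ± 0.09, -0.03 ± 0.06 and -0.12 ± 0.06.

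**Figure D4:**
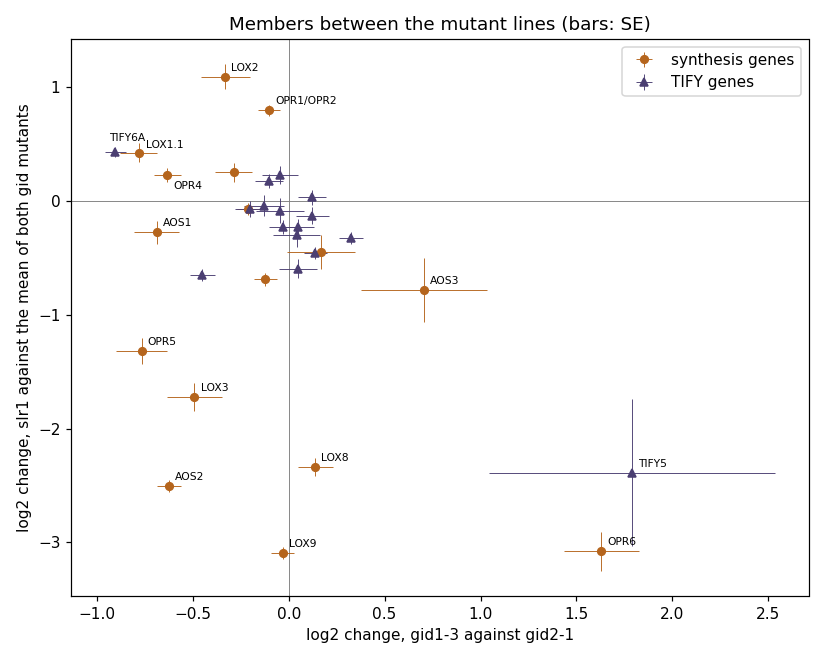
Log2 change of slr1 against the mean of both gid mutants (vertical axis) and of gid1-3 against gid2-1 (horizontal axis) for the 32 genes above the reporter level in at least 1 line, with SE bars. LOX9, AOS2 and LOX8 lay low, as did OPR6 and TIFY5, which also lay to the right. The mean signals of OPR6 and TIFY5 in slr1 were under the highest reporter level of that line, so their height is a fitted value. Most TIFY genes lay near the centre.

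Several members are neighbours in the reference gene order (RefSeq annotation of the japonica assembly ASM3414082v1). LOX8 and LOX9 are adjacent on chromosome 8 and were alike in the gid mutants, while in slr1 LOX9 was 2.13-fold and LOX8 1.21-fold below T65. On chromosome 6 OPR6, OPR5, OPR4, OPR3 and OPR1/OPR2 follow each other with no other protein-coding gene between them, and the 4 measured had 4 patterns: highest in gid1-3, highest in gid2-1, lowest in gid1-3 and highest in slr1. The JAZ genes TIFY11A, TIFY11C and TIFY11B are adjacent on chromosome 3 and had changes of 0.39 ± 0.08, 0.39 ± 0.11 and 0.32 ± 0.09 in gid1-3. TIFY11E and TIFY11D, with 2 genes between them on chromosome 10, both rose in gid1-3, and TIFY11D alone of the pair was called in gid2-1 (0.31 ± 0.06, against 0.03 ± 0.06 for TIFY11E). The TIFY11D call in gid2-1 was lost under both centrings of the arrays, and the rises in gid1-3 were lost on spiked controls, that of TIFY11E also after quantile normalization. Neighbours of one family can share sequence, and cross-binding of their transcripts was not tested.

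**Figure D5:**
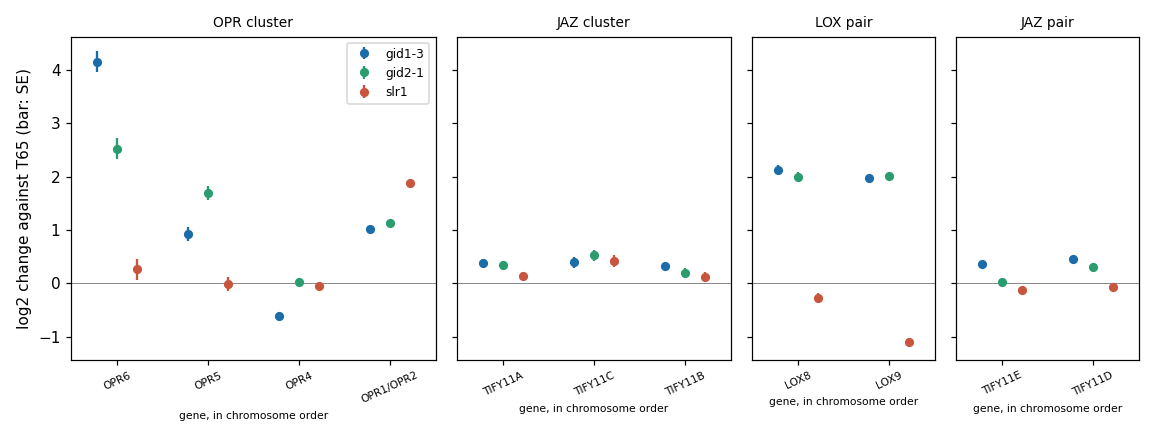
Log2 change against T65 (vertical axis, with SE bars) in gid1-3, gid2-1 and slr1 of members that lie next to each other, in chromosome order (OPR3, unmeasured, is left out between OPR4 and OPR1/OPR2). The OPR genes differed from one another in which line was highest (OPR6 changes are fitted values, with T65 under the reporter level), and the 3 clustered JAZ genes were called higher together in gid1-3 alone.

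Other steps of the pathway were followed in genes picked by name, of which 9 were measured. In gid1-3 4 were called higher and 2 lower, in gid2-1 3 higher and 1 lower, and in slr1 1 higher and 3 lower. All 9 were bright, and these counts are near the 54.1%, 48.4% and 37.5% of bright probe sets called. COI1A, a jasmonate receptor, measured 4769, 4836 and 4485 in T65, 3342, 3294 and 3225 in gid1-3, 4101, 4166 and 3882 in gid2-1, and 2834, 2713 and 2555 in slr1, and was below T65 on every mutant array (-0.51 ± 0.06, -0.21 ± 0.06 and -0.80 ± 0.06; adjusted p = 3.4e-06, 0.010 and 7.9e-08). The related COI2 fell in gid1-3 and slr1 (-0.39 ± 0.06 and -0.37 ± 0.06), and COI1B rose in gid1-3 (0.25 ± 0.07). JAR1, which makes the active conjugate, rose in all 3 mutants, by 0.24 ± 0.06, 0.53 ± 0.06 and 0.35 ± 0.06 (adjusted p = 0.0064, 5.6e-06 and 5.4e-04). JAMYB, a MYB factor known as jasmonate-induced, rose in gid1-3 and gid2-1 (0.44 ± 0.10 and 0.41 ± 0.10), BHLH148, a JAZ-bound factor, in gid1-3 (0.40 ± 0.09), and NINJA1, the adaptor between JAZ proteins and corepressors, in gid2-1 (0.39 ± 0.07). The corepressor gene TPR2 fell in slr1 (-0.37 ± 0.10), and TPR3 was not called against T65. The probe sets of NINJA1 and TPR2 can bind related transcripts.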

How the data were processed

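The deposited table holds probe-set intensity values on a linear scale for 57381 probe sets on 12 arrays. The software that made them is not given in the sources used here. Per the labels, total RNA was labelled as biotinylated cRNA. Each array has a trimmed mean (2% at either end) of 500.1, which scaling by the authors would give. After 187 controls were left out, signals under 1 were set to 1, log2 was taken, and a model of 1 mean per line was fitted with limma (version 3.58.1, under R 4.3.3; eBayes with trend), after a test on simulated data. Precision is limited by 3 arrays per line. A gene was read on its probe set with the highest mean. A level under the reporter controls' 95th percentile is a bound. The members, gene lists and tests were chosen with earlier results of these data known. All members are named; values on every array are given for bright members called at 2-fold or more, or in opposite directions, and others by choice after their values were seen. Of 41 other pathway names, 25 were not in the gene table, and 2 names that other genes share were set aside. Alternatives were quantile normalization, 2 centrings, no dim probe sets, no trend, only the compared lines, a replicate block, a 2-fold threshold, no cross-binding probe sets, a pseudocount of 16, averaged probe sets and leaving out each array; centring on spiked controls was added after seeing the data.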

Additional observations from a re-analysis of the deposited data

How the results depend on the processing

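Over 22 other settings with the threshold unchanged, 15 of 23 calls in gid1-3, 14 of 21 in gid2-1, 6 of 11 in slr1, 8 of 12 between the gid mutants and 15 of 24 in slr1 against their mean held in every setting that measured the gene. At 2-fold the synthesis calls were 7 in gid1-3, 4 in slr1, 1 between the gid mutants and 7 in slr1 against their mean, and the TIFY calls were 2, 1 and 0 against T65 (gid1-3, gid2-1, slr1), 0 between the gid mutants and 1 in slr1 against their mean. With arrays centred on their medians 5 TIFY genes were called in gid2-1 and 1 in slr1; with arrays centred on the spiked controls 6 were called in gid1-3 and 5 in gid2-1. Without a trend 5 synthesis genes were called in slr1 and 7 TIFY genes in slr1 against the gid mean. With only the compared lines 5 TIFY genes were called in slr1, and between the gid mutants 5 were called without cross-binding probe sets and 5 with probe sets averaged. The excess of the synthesis over the TIFY median (synthesis minus TIFY median log2 change, slr1 vs T65 and likewise elsewhere) was 0.73 in gid1-3 after quantile normalization, 0.66 (gid1-3), 0.96 (gid2-1) and -0.44 (slr1 against the gid mean) without dim probe sets, and 0.27 and 0.31 (gid1-3, gid2-1) without cross-binding ones; in slr1 it turned from -0.13 to 0.00151 after quantile normalization and to 0.00575 with probe sets averaged. Leaving out 1 array gave excesses of 0.42 to 0.61 in gid1-3, 0.59 to 0.83 in gid2-1, -0.19 to -0.0195 in slr1, -0.33 to -0.25 between the gid mutants and -0.32 to -0.11 in slr1 against their mean. It gave 11 to 12, 11 to 13 and 6 to 9 synthesis calls and 10 to 13, 8 to 10 and 3 to 5 TIFY calls against T65, 7 to 10 and 3 to 4 between the gid mutants, and 11 to 13 and 8 to 10 in slr1 against their mean; the 5 TIFY calls in slr1 came without replicate 2 or 3 of gid2-1. Without cross-binding probe sets TIFY6B was lower, at -0.53 in gid1-3 and -0.28 in slr1, and centred on the spiked controls OPR7 in gid2-1 was -0.023. The cause was not tested where settings alone differ. With the replicate number as a block, 11, 12 and 9 synthesis genes and 12, 9 and 3 TIFY genes were called against T65. No pairing by number was seen, as 4 of 18 same-number pairs correlated over 0.1 and 4 of 12 arrays correlated best with their own number. The labels do not say whether the numbers pair arrays, and with 3 arrays per line this check cannot exclude it.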
